A study of Mus musculus with 3 samples.

Results

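The genes described here are the variable (V) gene segments of the alpha and beta chains of the T cell receptor. They were taken as every gene whose symbol begins with Trav or Trbv, which gave 163 of the 32285 genes in the count matrices: 128 Trav genes in 23 numbered subgroups, and 35 Trbv genes. Of these 163 genes, 92 had at least 1 unique molecular identifier (UMI, a counted RNA molecule) in the cells kept, and 88 (64 Trav and 24 Trbv) had at least 1 in the CD8, CD4 or Foxp3 T cells. Live CD45+ cells had been sorted out of the liver tumours that MYC-ON mice carried, on the C57BL6 strain at 18 weeks of age, with no further genotype given. They were profiled with a droplet method that reads the 3' end of each RNA. There were 3 libraries, a control, a DU101-treated and a DU102-treated one, with 1 sample per group. The agents DU101 and DU102 are given by code name only, with no dose or duration, and the labels do not say how many animals went into a library. With 1 library per group there is no replicate spread and no test between groups. The intervals below are 95% exact intervals that cover counting error only, and a difference between libraries cannot be told apart from a difference between animals.

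Each alpha-beta T cell builds its receptor by cutting and joining DNA in the thymus. A beta chain joins 1 Trbv gene to a diversity and a joining segment and to the constant gene Trbc1 or Trbc2, and an alpha chain joins 1 Trav gene to a joining segment and to Trac. The V gene encodes most of the chain's antigen-binding domain, including its CDR1 and CDR2 loops and the start of the CDR3 loop. Because a cell passes its rearranged genes to its daughters, expansion of a few T cells raises the share of the V genes they carry, so V gene usage and its evenness are a coarse readout of the repertoire. Invariant natural killer T cells, which are frequent in mouse liver, use Trav11, and mucosal-associated invariant T cells use Trav1.

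The Trbv genes lie on chromosome 6 and the Trav genes on chromosome 14 (GRCm38, the build also called mm10). GENCODE annotated 130 of the 163 as V genes and 33 as pseudogenes, of which 7 had UMIs in the gated T cells. The germline V exons of 3 Trbv genes are shown, whole or (Trbv19) as the last 300 bases, on the plus strand of GRCm38. Trbv1 and Trbv2 were the genes that led usage in CD8 cells of a library, Trbv1 in the control and DU102 and Trbv2 in DU101, and Trbv19 came next after Trbv1. Capitals mark the end of the exon from its conserved cysteine codon on, where CDR3 begins.
Trbv1, chr6:40891591-40891885: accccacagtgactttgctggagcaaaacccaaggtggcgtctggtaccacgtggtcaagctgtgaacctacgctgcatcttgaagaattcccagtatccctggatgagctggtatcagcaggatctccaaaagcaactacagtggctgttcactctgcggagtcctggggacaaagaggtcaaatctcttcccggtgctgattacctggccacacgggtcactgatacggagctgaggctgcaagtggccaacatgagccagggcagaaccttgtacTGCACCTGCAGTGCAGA
Trbv19, chr6:41178749-41179048: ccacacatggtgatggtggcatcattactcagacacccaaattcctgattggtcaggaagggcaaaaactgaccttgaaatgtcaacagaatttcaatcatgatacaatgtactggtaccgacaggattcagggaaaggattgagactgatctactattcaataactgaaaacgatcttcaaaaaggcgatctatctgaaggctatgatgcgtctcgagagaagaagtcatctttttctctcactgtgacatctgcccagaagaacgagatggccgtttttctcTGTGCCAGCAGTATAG
Trbv2, chr6:41047701-41047995: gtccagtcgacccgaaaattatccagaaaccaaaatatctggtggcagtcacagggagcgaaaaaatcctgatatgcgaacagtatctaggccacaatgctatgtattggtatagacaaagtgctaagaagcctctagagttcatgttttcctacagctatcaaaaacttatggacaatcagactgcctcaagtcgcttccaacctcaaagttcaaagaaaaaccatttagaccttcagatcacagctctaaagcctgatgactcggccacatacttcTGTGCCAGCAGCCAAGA
The last 60 bases of the V exon are shown for the other Trbv genes that differed between libraries or recurred in pairs, with the 3 members of the Trbv13 subgroup beside each other.
Trbv3, chr6:41048769-41048828: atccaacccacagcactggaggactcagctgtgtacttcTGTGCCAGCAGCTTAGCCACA
Trbv13-1, chr6:41116409-41116468: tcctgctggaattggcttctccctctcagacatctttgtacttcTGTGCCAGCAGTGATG
Trbv13-2, chr6:41121773-41121832: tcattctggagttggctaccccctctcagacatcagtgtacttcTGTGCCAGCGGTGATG
Trbv13-3, chr6:41130526-41130585: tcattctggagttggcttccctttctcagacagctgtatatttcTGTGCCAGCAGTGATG
Trbv29, chr6:41271822-41271881: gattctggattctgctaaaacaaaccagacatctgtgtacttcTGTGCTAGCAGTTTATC
None of the 21 Trbv V exons shared a stretch of 60 bases with another gene of the set, so Trbv genes were counted one by one. The Trav locus holds repeated copies, as the exon ends of Trav16 and its copies Trav16d-dv11 and Trav16n show; Trav19 is given as a gene with no such copy, and Trav11 and Trav11d as the invariant natural killer T cell segment and its copy.
Trav16, chr14:53743646-53743705: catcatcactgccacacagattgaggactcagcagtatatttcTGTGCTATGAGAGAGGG
Trav16d-dv11, chr14:53047762-53047821: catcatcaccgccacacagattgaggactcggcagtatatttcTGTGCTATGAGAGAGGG
Trav16n, chr14:53351562-53351621: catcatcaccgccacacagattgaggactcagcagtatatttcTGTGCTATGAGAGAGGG
Trav19, chr14:53845768-53845827: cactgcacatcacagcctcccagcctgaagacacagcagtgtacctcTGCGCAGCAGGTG
Trav11, chr14:53519800-53519859: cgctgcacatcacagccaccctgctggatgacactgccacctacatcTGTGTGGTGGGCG
Trav11d, chr14:52824853-52824912: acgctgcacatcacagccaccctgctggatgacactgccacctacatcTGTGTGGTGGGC
In 63 of 108 Trav V exons, over 50% of the 60-base stretches also occurred in another member, and 34 had an identical copy. These 63 genes held 542 of the 1786 Trav UMIs in the gated cells. The sources used here do not say how reads that fit several copies were counted, so Trav genes were joined by subgroup and the split between copies is uncertain.

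The libraries held 91013198, 106604935 and 96817875 UMIs in 12639, 15686 and 13650 barcodes (control, DU101 and DU102, the order used throughout). Filtering left 10154, 13799 and 11461 cells, with a median of 6336, 4832 and 5091 UMIs, and pairs of libraries shared 37 to 57 barcodes. T cells were gated on Cd3d, Cd3e and Cd3g and split by Cd8a and Cd8b1, Cd4, and Foxp3, giving 681, 1836 and 1358 CD8 cells, 264, 638 and 418 CD4 cells, and 137, 218 and 143 Foxp3 cells. Of genes the gates did not use, Cd40lg was found in 31.8%, 37.0% and 26.1% of CD4 but 1.03 to 1.76% of CD8 cells. Regulatory T cell markers in Foxp3 cells were Ikzf2 (89.1%, 92.2% and 94.4%), Ctla4 (75.9%, 76.15% and 72.7%) and Il2ra (48.9%, 32.6% and 42.7%). In CD4 cells Ikzf2 was found in 28.8%, 28.7% and 30.1%, Ctla4 in 30.3%, 36.4% and 27.75%, and Il2ra in 10.6%, 6.43% and 7.9%. Whether the CD4 gate holds regulatory T cells without a Foxp3 UMI was not tested. The other 425, 884 and 900 T cells carried no coreceptor UMI or markers of several gates. The libraries also differed in sex. Xist UMIs were found in 66.8% of control CD8 cells and in 0% and 0.0736% of treated ones, and in the control 440 CD8 cells had Xist and no Y-linked UMI while 118 had the reverse, so the control library held cells of both sexes. RNA of neutrophil marker genes in the CD8 gate summed to 558, 6599 and 20250 CPM, which scales UMIs to the same total in every gate and library. Its part in V gene detection and usage was not tested.

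V gene RNA was detected in a minority of T cells and was close to absent from other lineages. Trbv UMIs were found in 22.2% (19.1 to 25.5), 22.4% (20.6 to 24.4) and 27.0% (24.6 to 29.4) of CD8 cells. Trav UMIs were found in 23.6%, 20.5% and 23.4% of CD8 cells. Among B cells, which carry no rearranged T cell receptor, none of 635, 839 and 933 cells had a Trbv UMI, which allows shares of up to 0.472%, 0.358% and 0.322%. In the macrophage or monocyte gate the shares were 0.0527%, 0.253% and 0.139% at higher median depths of 8182, 6144 and 7292.5 UMIs. V genes lie at the 5' end of the receptor RNA, far from the end that is read, and for every 100 UMIs of Trbc1 and Trbc2 there were 1.77, 2.53 and 2.39 UMIs of Trbv in CD8 cells. Most CD8 cells with a Trbv UMI had just 1 (84.8%, 81.3% and 75.4%). UMIs of several Trbv genes were found in 3 of 151, 14 of 412 and 21 of 366 of these cells (2.0%, 3.4% and 5.7%). A cell with 1 UMI cannot show several genes, so these shares understate the rate among cells with more UMIs. Joining segments, which lie between V and constant genes and would mark clones, had 1 UMI in all 3 libraries together, so V gene usage below counts cells and not clones.

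Depth differed between gates and libraries, so detection was also read with each cell thinned to 2000 UMIs. Thinned, Trbv was found in 6.89%, 10.5% and 10.7% of CD8 cells, leaving out 7, 45 and 28 shallower cells, and Trav in 9.05%, 9.98% and 10.5%. The control was thus lowest for Trbv once thinned. In effector-like CD8 cells the thinned Trbv shares were 7.86%, 12.6% and 11.8%, and in naive-like ones 7.41%, 6.85% and 8.18%. Naive-like cells carried UMIs of Ccr7 or Lef1 and none of Gzmb, Gzmk or Pdcd1, and effector-like cells the reverse. They numbered 251, 372 and 277 naive-like and 228, 938 and 734 effector-like cells.

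**Figure D1:**
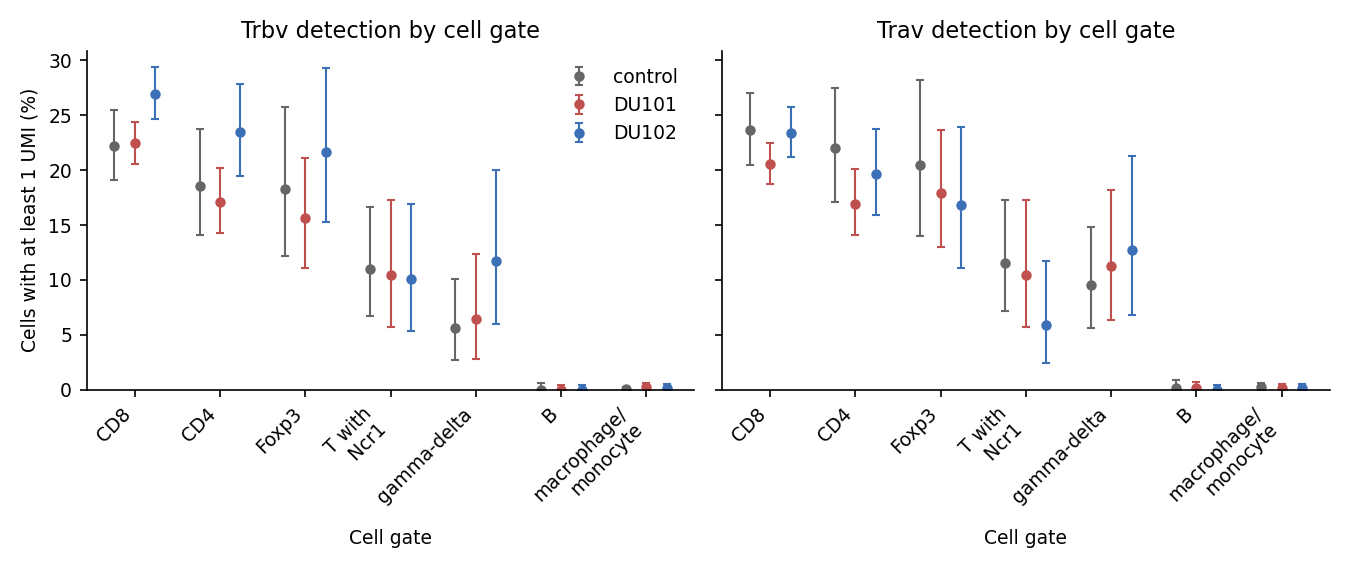
Share of cells with at least 1 Trbv UMI (left) or Trav UMI (right) by cell gate, in percent, unthinned; points are the 3 libraries and bars are 95% exact binomial intervals. CD8, CD4 and Foxp3 cells sit between 15.6% and 27.0%, gamma-delta cells and T cells with Ncr1 between 5.62% and 12.8%, and B cells and macrophages or monocytes near 0.

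Trbv usage in CD8 cells was led by the same genes in the control and DU102 libraries and by others in DU101. Each cell was given the Trbv gene with most of its UMIs, which assigned 149, 401 and 351 CD8 cells. Trbv1 was assigned to 19.5% of them in the control (29 cells, interval 13.4 to 26.7), 5.74% in DU101 (23 cells, 3.67 to 8.48) and 18.2% in DU102 (64 cells, 14.3 to 22.7). DU101 was low and its interval met neither of the others. Trbv19 was used by 15.4% (10.0 to 22.3), 9.73% (7.01 to 13.1) and 15.7% (12.0 to 19.9), and Trbv3 by 12.8% (7.86 to 19.2), 5.49% (3.47 to 8.19) and 11.4% (8.27 to 15.2). For both genes DU101 was again the lowest library, with intervals that overlapped the control's.

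The genes that took the larger shares in DU101 were Trbv2 and members of the Trbv13 subgroup. Trbv2 was used by 6.71% (3.27 to 12.0), 12.5% (9.40 to 16.1) and 5.13% (3.07 to 7.98) of cells. Trbv13-1 was used by 3.36% (5 cells), 10.2% (41 cells) and 4.56% (16 cells). Trbv13-2 was used by 2.01% (3 cells), 11.0% (44 cells) and 2.28% (8 cells). All 3 genes were highest in DU101, and for Trbv13-2 the DU101 interval of 8.09 to 14.5% lay above those of the other libraries. The third member, Trbv13-3, was used by 2.69%, 4.49% and 1.71%, with overlapping intervals. Trbv29 did not separate the libraries, at 6.04%, 5.74% and 6.84%. Trbv31, which lies downstream of the constant genes in the opposite orientation, was rare in CD8 cells at 4.03% (6 cells), 0.499% (2 cells) and 1.42% (5 cells).

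**Figure D2:**
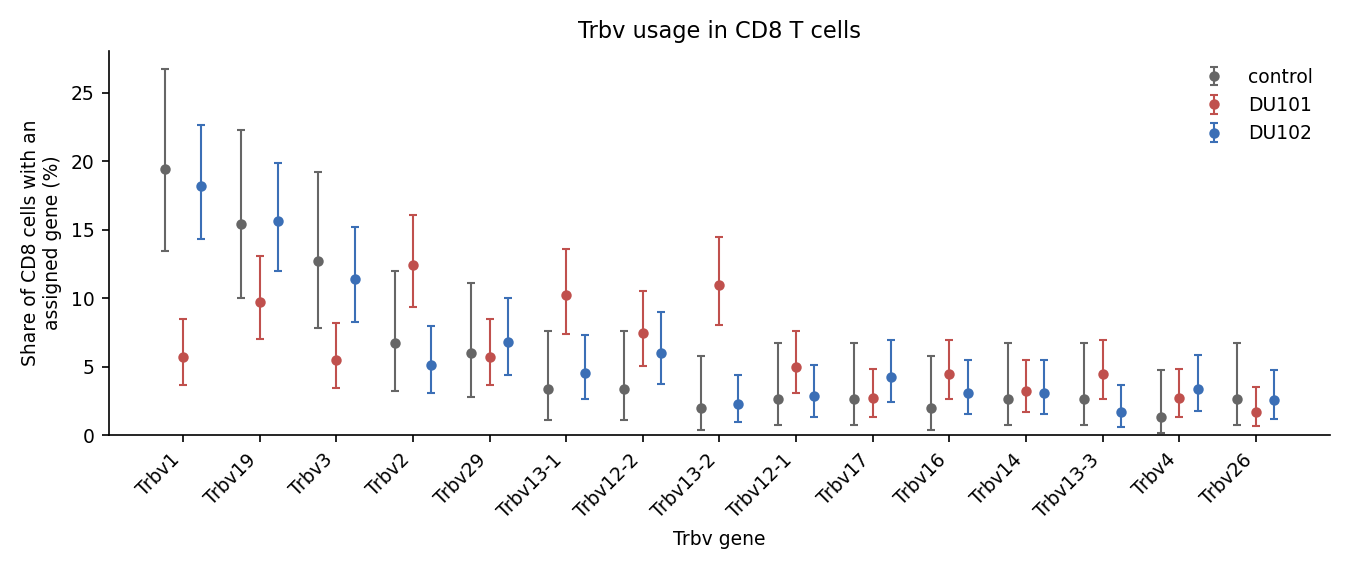
Share of CD8 cells assigned each Trbv gene, in percent of cells with an assigned Trbv gene, for the 15 genes of highest mean share; points are libraries and bars 95% exact binomial intervals. Control and DU102 points lie close together, at 19.5% and 18.2% for Trbv1, while DU101 stands at 5.74% for Trbv1 and leads at Trbv2, Trbv13-1 and Trbv13-2.

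As a fixed rule of size, a usage ratio was called where at least 20 cells over both libraries carried the gene, the ratio was at least 1.5-fold and its exact interval lay on that side of 1. By this rule 4 of 11 Trbv genes were called between DU101 and control, which is 36.4%. Trbv1 was 3.39-fold lower (1.90 to 6.14) and Trbv3 2.32-fold lower (1.19 to 4.50) in DU101, and Trbv13-1 was 3.05-fold higher (1.20 to 9.88) and Trbv13-2 5.45-fold higher (1.75 to 27.4). Trbv2, at 1.86-fold (0.931 to 4.11), and Trbv19, at 0.630 (0.367 to 1.10), were not called. Between DU102 and control 0 of 7 Trbv genes were called (0%), with ratios from 0.764 for Trbv2 to 1.78 for Trbv12-2 and intervals that all included 1, some of them wide. Between DU101 and DU102, whose larger numbers narrow the intervals, 6 of 14 were called (42.9%): Trbv1 (3.18-fold lower), Trbv3 (2.08-fold lower) and Trbv19 (1.61-fold lower) in DU101, and Trbv2 (2.43-fold), Trbv13-1 (2.24-fold) and Trbv13-2 (4.81-fold) higher. Across Trbv genes, the shares of DU102 and control had a Pearson r of 0.968 and a Spearman rho of 0.812 (24 genes), those of DU101 and control 0.433 and 0.668 (23 genes), and those of DU101 and DU102 0.513 and 0.834 (24 genes), the highest rho of the 3 pairs. These are descriptions across genes that share libraries and sum to 100.

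The control side of these ratios holds cells of both sexes, hence of different animals, so sex and animal cannot be told apart within it. Within the control, Trbv19 was assigned to 19 of 81 CD8 cells with Xist and no Y-linked UMI (23.5%) and to 1 of 36 with the reverse (2.78%), a ratio of 8.44 (1.34 to 351). Trbv1 was assigned to 9 of the 81 (11.1%) and to 10 of the 36 (27.8%), with intervals that overlapped (5.21 to 20.1 and 14.2 to 45.2). Against either subset alone, 2 Trbv genes were called in DU101 in place of 4. Trbv3 and Trbv13-1 were called against neither subset, and Trbv1 was not called against the cells with Xist, at a log2 ratio of -0.95. At least 1 of the 2 calls against the cells with Xist was therefore not among the 4. Trbv19, not called against the whole control, was used by 9.73% (7.01 to 13.1) of DU101 cells. That interval lay below the 23.5% (14.75 to 34.2) of the control cells with Xist. The treated CD8 cells nearly all lacked Xist, so sex, animal and treatment cannot be told apart here.

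Alpha chain usage in CD8 cells set DU102 apart, whereas DU101 and control were close. Trav16 was the most used subgroup in every library, at 21.6% (33 cells, 15.3 to 28.9), 24.7% (86 cells, 20.3 to 29.6) and 17.6% (53 cells, 13.4 to 22.3) of 153, 348 and 302 assigned cells. Its UMIs were split over the near-identical Trav16 (17, 43 and 34 cells) and Trav16n (18, 54 and 33 cells) shown above. Trav7 followed in the control and DU101 at 16.3% and 14.4% but reached 5.63% (3.31 to 8.86) in DU102. Trav13 was used by 6.54%, 11.2% and 8.61%, with overlapping intervals.

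The subgroups that were larger in DU102 were Trav19, Trav9 and Trav14. Trav19, a single gene, was used by 5.88% (9 cells, 2.73 to 10.9), 2.87% (10 cells, 1.39 to 5.22) and 15.2% (46 cells, 11.4 to 19.8). Trav9 was used by 3.27% (5 cells), 4.31% (15 cells) and 12.9% (39 cells), and Trav14 by 3.92% (6 cells), 4.60% (16 cells) and 11.3% (34 cells). Each of the 3 was highest in DU102, and for Trav9 and Trav19 the DU102 interval lay above both others. Within these subgroups, 1 gene held most of the excess: Trav9-2 had UMIs in 3, 4 and 32 CD8 cells, and Trav14n-3 in 1, 6 and 24.

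**Figure D3:**
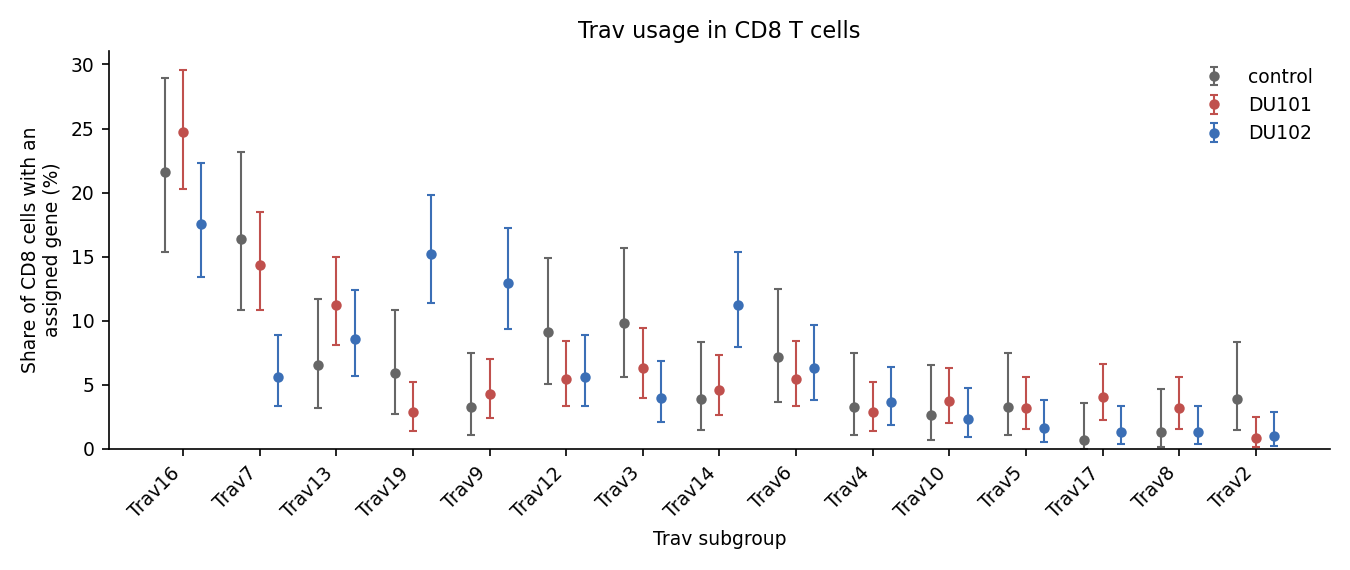
Share of CD8 cells assigned each Trav subgroup, in percent of cells with an assigned Trav subgroup, for the 15 subgroups of highest mean share; points are libraries and bars 95% exact binomial intervals. Trav16 leads in all 3 libraries, and Trav19, Trav9 and Trav14 are highest in DU102, at 15.2%, 12.9% and 11.3%.

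By the same rule 5 of 9 Trav subgroups were called between DU102 and control (55.6%): Trav9 (3.95-fold, 1.56 to 12.9), Trav14 (2.87-fold, 1.19 to 8.37) and Trav19 (2.59-fold, 1.25 to 6.02) higher, and Trav7 (2.90-fold, 1.51 to 5.73) and Trav3 (2.47-fold, 1.08 to 5.77) lower. Between DU101 and control 0 of 8 were called (0%), with ratios from 0.597 for Trav12 to 1.72 for Trav13. Between DU101 and DU102, 4 of 11 were called (36.4%), with Trav7 higher in DU101 and Trav9, Trav14 and Trav19 higher in DU102. Against the control cells with Y-linked and no Xist UMIs alone, which number 32 with a Trav subgroup, no Trav subgroup was called in DU102; against those with Xist, 3 were. Requiring 2 UMIs of the V gene, which leaves few cells, left no call against control for either chain.

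Cells with both chains assigned, 32, 83 and 96 in the CD8 gate, showed a few recurring pairs. In DU101 the most frequent pair was Trav17 with Trbv29, in 5 of 83 cells, where the product of the shares of the 2 genes gives 0.192 cells. All 5 had more Trbc2 than Trbc1 UMIs and no Trbc1 UMI, and 4 were effector-like. Of the 14 DU101 CD8 cells assigned Trav17, 13 had Trbc2 and no Trbc1 UMIs. In DU102 Trav9 with Trbv4 was found in 5 of 96 cells, where the product gives 0.424, and all 5 were effector-like with Trbc2 and no Trbc1 UMIs. Both traits were common. Among all CD8 cells, 1009 of 1836 in DU101 and 557 of 1358 in DU102 had Trbc2 and no Trbc1 UMIs. Effector-like cells made up 938 of the 1836 and 734 of the 1358. Trav19 with Trbv1 and Trav19 with Trbv3 were found in 6 cells each, against products of 2.67 and 1.67. In the control no pair was seen in more than 2 of its 32 cells (6.25%). Those seen in 2 were Trav16 with Trbv19, Trav2 with Trbv1, Trav7 with Trbv19 and Trav7 with Trbv3. Their products were 1.07, 0.244, 0.807 and 0.667. As a share of paired cells the leading pairs were at 6.25% (0.766 to 20.8), 6.02% (1.985 to 13.5) and 6.25% (2.33 to 13.1). The control value rests on 2 cells. The chance that 2 different paired cells carried the same pair was 0.807%, 1.23% and 1.82% across the libraries. Multiplying that chance for each chain taken alone gives 0.953%, 0.803% and 0.917%. The difference was not tested. Pairs were listed for being frequent, so these products are a description and not a test, and without joining segments a shared pair does not identify a clone.

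The state of the cells carrying these genes is a further readout that the assignment did not use. The effector-like state is itself defined in part by Pdcd1 UMIs, so it and the Pdcd1 share are not separate readouts. The groups of all assigned cells below include the cells of the gene named. DU102 CD8 cells with Trav19 were effector-like in 33 of 46 cases (71.7%, 56.5 to 84.0), against 56.3% (50.5 to 62.0) of all DU102 CD8 cells with a Trav subgroup, and 69.6% (54.2 to 82.3) had a UMI of Pdcd1, the gene of the inhibitory receptor PD-1, against 40.4% (34.8 to 46.2) of the latter. For Trav19 cells and all cells the effector-like intervals overlapped, and the Pdcd1 intervals did not. DU102 cells with Trbv1, Trbv29 or Trbv17 had Pdcd1 UMIs in 53.1%, 54.2% and 60% of cases, with intervals that overlapped that of Trav19 cells. Both Trbc1 and Trbc2 UMIs were found in 43 of the 46 Trav19 cells and in 65.2% of all DU102 CD8 cells with a Trav subgroup. DU101 CD8 cells with Trbv2 were effector-like in 66.0% (51.2 to 78.8) and those with Trbv13-2 in 65.9%. Among all DU101 CD8 cells with a Trbv gene the share was 57.1% (52.1 to 62.0), an interval that overlapped that of Trbv2. In the control 1 of 10 and in DU102 5 of 18 Trbv2 cells were effector-like. None of the 50 Trbv2 cells of DU101 had more Trbc1 than Trbc2 UMIs and 45 had more Trbc2. In DU102 Trbv1 cells, 54 of 64 had more Trbc2, whereas in control Trbv1 cells 14 had more Trbc1 and 15 more Trbc2.

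Split by state, naive-like CD8 cells of the 3 libraries had overlapping intervals at each of 7 Trbv genes, while effector-like cells differed at several. In naive-like cells, Trbv19 was used by 15.9%, 11.6% and 15.4% of 63, 69 and 65 assigned cells and led in the control and DU102, while Trbv12-2 led in DU101 at 13.0%. Trbv2 was used by 11.1%, 7.25% and 12.3% of naive-like cells, with no excess in DU101. In effector-like cells the leading gene was Trbv1 in the control (23.4%, 12.3 to 38.0) and DU102 (19.0%, 13.8 to 25.1) and Trbv2 in DU101 (14.4%, 10.1 to 19.6). Trbv2 was used by 2.13% and 2.50% of control and DU102 effector-like cells, Trbv13-1 by 4.26%, 13.1% and 4.0% across the libraries, and Trbv13-2 by 0%, 12.7% and 2.50%. Trbv1 was low in DU101 in both states, at 2.90% of naive-like and 6.11% of effector-like cells. Trav19 and Trav9 were used by 19.4% and 15.3% of DU102 effector-like cells and by 1.89% and 9.43% of its naive-like cells. Whether the libraries differed more in the effector-like than in the naive-like state was not tested, and the naive-like cells are few.

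**Figure D4:**
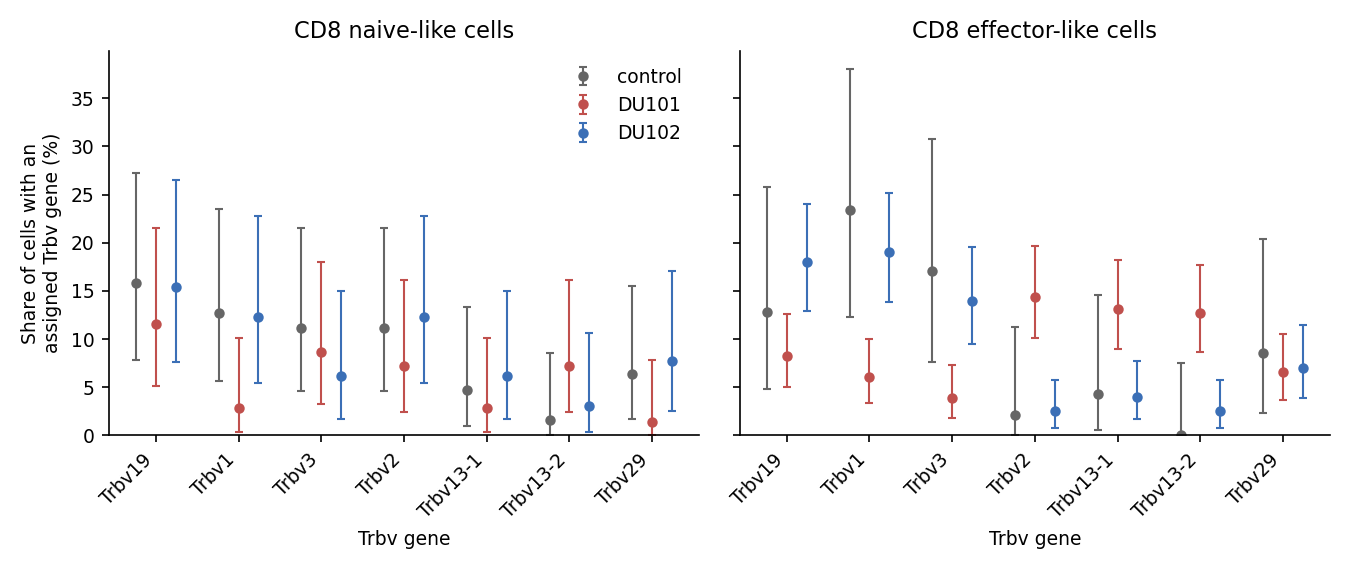
Trbv usage in naive-like (left) and effector-like (right) CD8 cells, in percent of cells with an assigned Trbv gene, for 7 genes; points are libraries and bars 95% exact binomial intervals. The 3 libraries overlap in naive-like cells, while in effector-like cells DU101 is highest at Trbv2, Trbv13-1 and Trbv13-2 (14.4%, 13.1% and 12.7%).

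Evenness followed from these shares. The same-gene probability is the chance that 2 different assigned cells carry the same V gene, and its inverse is the effective number of genes, meaning the number of equally used genes that would give that probability. No intervals are given for effective numbers, so their order across libraries and states is a description that leaves counting error out. In CD8 cells the effective number of Trbv genes was 11.1, 14.0 and 11.2, with the highest value in DU101. Naive-like cells had effective numbers of 14.2, 15.4 and 14.7, and effector-like cells 9.74, 12.5 and 9.76. Effector-like cells were thus below naive-like cells in every library, and DU101 was highest in both states. The remaining 202, 526 and 347 CD8 cells had UMIs of both marker sets or of neither. Their effective numbers of Trbv genes were 9.04, 15.3 and 12.4, so in the control they lay below the effector-like cells. A low value there was not particular to the effector-like state. The 3 leading Trbv genes held 53.2%, 40.2% and 51.0% of effector-like and 39.7%, 34.8% and 40.0% of naive-like cells. For Trav subgroups the effective number in CD8 cells was 9.48, 8.87 and 9.77, with naive-like cells at 11.0, 11.3 and 11.7 and effector-like cells at 6.63, 7.17 and 8.24. Among effector-like cells Trav7 led in the control at 31.5%, Trav16 in DU101 at 29.4% and Trav19 in DU102 at 19.4%, with Trav16 next there at 18.8%.

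**Figure D5:**
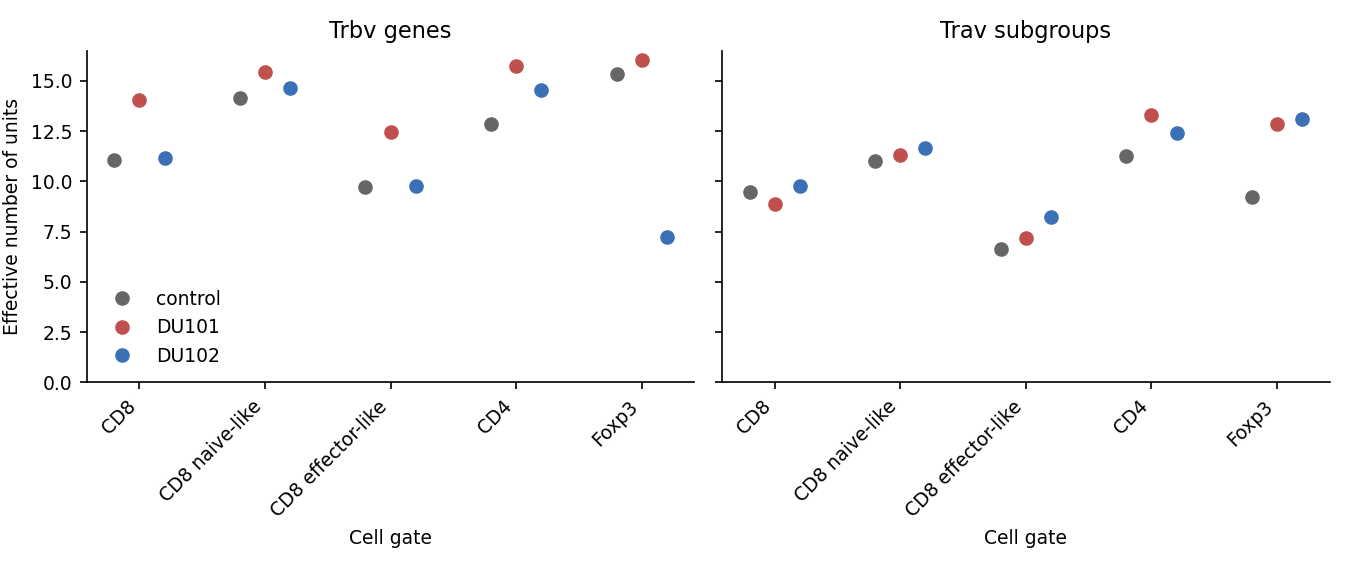
Effective number of Trbv genes (left) and Trav subgroups (right) by gate and library, as single values. Counting error is not shown. Effector-like CD8 cells lie below naive-like ones in all 3 libraries for both chains, and the lowest Trbv value among CD4 and Foxp3 cells is DU102 Foxp3 at 7.25.

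CD4 cells gave smaller numbers, with 47, 105 and 95 cells assigned a Trbv gene, and no leading gene that held across libraries. Trbv2 led in the control at 17.0% (7.65 to 30.8), Trbv3 in DU101 at 12.4% (6.76 to 20.2) and Trbv19 in DU102 at 15.8% (9.12 to 24.7), and for each of these genes the 3 intervals overlapped. Trbv13-2 was used by 12.8%, 9.52% and 7.37%, without the DU101 excess of the CD8 cells. Trbv31 was assigned to 0 of 47, 9 of 105 and 7 of 95 CD4 cells, with intervals of 0 to 7.55%, 3.99 to 15.7% and 3.01 to 14.6%. The effective number of Trbv genes was 12.9, 15.7 and 14.5. Trav7 led in control CD4 cells at 24.6% (14.1 to 37.8) and was used by 13.3% and 7.79% in the treated libraries. Trav16, the leading CD8 subgroup, was used by few CD4 cells: 2 of 57, 8 of 105 and 2 of 77.

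Foxp3 cells, the regulatory T cell gate, had 24, 34 and 29 cells with an assigned Trbv gene. Trbv2 led in each library, at 12.5% (3 cells, 2.66 to 32.4), 14.7% (5 cells, 4.95 to 31.1) and 34.5% (10 cells, 17.9 to 54.3), and in the control it shared that place with other genes of 3 cells. DU102 was highest, and its interval overlapped the others. The effective number of Trbv genes was 15.3, 16.0 and 7.25, the low DU102 value resting on those 10 cells. Trbv24, which GENCODE annotates as a pseudogene, was assigned to 3, 0 and 2 Foxp3 cells and had 14, 11 and 25 UMIs in all kept cells of the 3 libraries. Trav6 led in control Foxp3 cells at 28.6% (8 of 28 cells) and Trav16 in the treated ones at 16.7% and 23.8%.

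The invariant chain segment Trav11 was found in 18 of 1507, 19 of 3576 and 11 of 2819 T cells (1.19%, 0.531% and 0.390%), nearly all of them outside the CD8 gate, which held 0, 1 and 1. Of these T cells, 6, 1 and 1 had UMIs of Zbtb16, which encodes the transcription factor PLZF of innate-like T cells, and 7, 10 and 5 had UMIs of Klrb1c, the NK1.1 gene. Trav1 was found in 2, 5 and 2 T cells, too few to compare.

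V genes were also read as RNA level in place of usage, for genes with at least 30 UMIs over both libraries. Of the V genes with that many, 6 of 15 were past 1.5-fold in CPM with an interval on that side of 1 between DU101 and control, where 13.6% of all 10507 genes were. Trbv2 was higher in DU101 (2.80 and 7.75 CPM in control and DU101), as were Trbv12-2, Trbv13-1 and Trbv13-2, while Trbv1 (7.10 and 3.02 CPM) and Trav19 (3.37 and 1.13 CPM) were lower. Between DU102 and control 4 of 13 were called, all higher, where 11.8% of all genes were: Trav9-2 (0.561 and 6.09 CPM in control and DU102), Trav14n-3, Trav19 and Trbv29. Between DU101 and DU102 12 of 22 were called, where 10.1% of all genes were, 6 in each direction. Of the called genes of any kind in that comparison 27.2% were higher in DU101, and 41.5% with normalization by trimmed mean of M-values, which moved no V gene call. V gene RNA comes from the subset of cells that rearranged that gene, so these shares are not like those of genes expressed in every cell. In CD4 cells no V gene reached the minimum between DU101 and control, where 13% of all genes were called, and 1 did between DU102 and control, where 8.77% were: Trbv19, at 4.40 and 12.0 CPM.

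The constant genes, the receptor's signalling partners, and Rag1, Rag2, Dntt and Ptcra form a list of 24 genes. Between DU101 and control 1 of the 21 list genes tested in CD8 cells was called higher (Dntt) and 1 lower (Trbc1), where 13.6% of all genes were called. Between DU102 and control 0 of 20 were higher and 1 lower, where 11.8% of all genes were called; the median log2 ratios were 0.26 and 0.16, beside -0.03 and 0.04 over all genes. Trac, the alpha constant gene, stood at 393, 478 and 413 CPM in CD8 cells. Trbc2 stood at 1115, 1450 and 1492 CPM and was not called. Trbc1 stood at 807, 451 and 694 CPM and was called lower in DU101, at a ratio to control of 0.559 (0.536 to 0.582). More Trbc1 than Trbc2 UMIs were found in 33.0% (29.3 to 36.8), 17.4% (15.6 to 19.2) and 26.8% (24.3 to 29.3) of CD8 cells with unequal counts. Trbc1 and Trbc2 are near-identical in their coding part, so the split between them is uncertain. Trat1, an adaptor that binds the receptor complex, was called lower in DU102 at 18.9 and 10.4 CPM. Dntt, which encodes the enzyme that adds bases at the joints, had 0, 44 and 3 UMIs in CD8 cells; of the markers listed for plasmacytoid dendritic cells, Siglech was at 0 in the same gate, which excluded it. The other one, Bst2, was found in 45.8%, 55.1% and 40.8% of CD8 cells, at 122, 258 and 118 CPM, so it does not mark that type here. Neither listed marker is thus informative in this gate. Ptcra, another gene of the list, had 7, 102 and 0 UMIs in CD4 cells and was called higher in DU101. The source of the Dntt and Ptcra UMIs was not tested.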

How the data were processed

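RNA of live CD45+ liver tumour cells was measured by droplet 3' sequencing in 3 libraries, 1 per group, grouped by their titles. The authors deposited, per library, a matrix of UMI counts per gene and cell barcode; the submitters' processing notes name Cell Ranger 2.1.1 and mm10, and the matrix header, per the file headers, Cell Ranger 6.0.0. The authors' deposited cluster tables list no V gene and were not used. Barcodes were kept from 200 detected genes upward where mitochondrial UMIs made up no more than 10%, and doublets called by Scrublet (scanpy 1.11.5, expected rate 0.008 per 1000 barcodes, calling 284, 470 and 257) were removed. T cells had at least 2 UMIs of Cd3d, Cd3e and Cd3g and none of Cd79a, Ms4a1, Csf1r, Siglech, Ncr1 or Trdc. CD8 cells had Cd8a or Cd8b1 and no Cd4 or Foxp3, CD4 cells Cd4 and no CD8 gene or Foxp3, and Foxp3 cells Foxp3 and no CD8 gene, of which 56.2%, 51.4% and 50.4% had a Cd4 UMI.

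Each cell received the V gene, or Trav subgroup, with most UMIs, and ties were left unassigned. Shares have Clopper-Pearson intervals and ratios exact conditional Poisson intervals, both at 95% and for counting error only. Gene positions, types and V exons came from GENCODE vM21, where all 163 genes matched by identifier. CPM ratios used summed counts over all genes, with factors from edgeR 4.0.16 as alternatives, and the calling rule was tested on simulated data. Named genes were the 5 Trbv genes and 5 Trav subgroups of highest mean share per gate, the 3 highest and 3 lowest usage ratios, the 5 most frequent pairs per gate and library, and always Trav11, Trav1, Trbv1, Trbv29, Trbv31 and the Trbv13 genes; Trav17 on its own, the single genes within subgroups and the genes called by CPM were named after their values were seen. The genes, lists, gates and rules were chosen with earlier results of these data known. The split of CD8 cells by state used Ccr7 and Lef1 for the naive-like side, which is narrower than the split first planned; this was set after values were seen, and the split with a further marker is not reported here.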

Additional observations from a re-analysis of the deposited data

Results flagged for a closer look

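V gene RNA was also seen in cells left out of the 3 gates. Trbv UMIs were found in 5.62%, 6.45% and 11.7% of gamma-delta T cells (control, DU101 and DU102; 178, 124 and 94 cells), above the 0 of 635, 839 and 933 B cells. Their Trav UMIs were mostly of Trav13 and Trav15, subgroups with members that also rearrange in the delta chain, with 6 and 6 of 14 assigned cells in the control. T cells with Ncr1 UMIs, a natural killer cell receptor gene, had Trbv UMIs in 11.0%, 10.5% and 10.1% of 173, 124 and 119 cells, at median depths of 10520, 8056 and 9120 UMIs.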

How the results depend on the processing

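No paired analysis was possible because the groups share only 1 replicate number, with 1 library each. Alternatives changed the Cd3 minimum, the mitochondrial limit, doublet and lineage filters, the V gene assignment, the control subset by sex, thinning and scaling. No usage ratio of a called V gene that could still be taken reversed. Same-gene probabilities did change side with the control subset. For Trav subgroups in CD8 cells this probability was 10.23% in DU102, 11.27% in DU101 and 10.55% in the whole control. It was 6.855% in the control cells with Y-linked UMIs and no Xist, and 12.81% in those with Xist. Of the values for whole comparisons under alternatives, 266 stayed within their limits and 15 moved. For ratios of same-gene probabilities the limits were the counting interval of the main ratio, and for numbers of calls they were 1.5-fold. With few cells that interval is wide, so a ratio can change side and stay within it. The 266 are therefore a weak measure of stability. Of 178 usage ratios of called single V genes that could be taken under alternatives, 165 kept their call and 13 lost it. Of those lost, 6 and 4 were against the control cells with Y-linked UMIs or with Xist alone. Ratios with under 20 cells, or with a count of 0 in 1 library, are not among the 178, so these numbers understate the calls lost. Under a minimum of 2 UMIs only a few could be taken, of which 2 kept their call and 1 lost it. The other 36 single values, shares of cells with V gene UMIs unthinned or at 1000 UMIs, move with depth by construction. Requiring 2 UMIs of the V gene moved Trbv calls in CD8 cells from 4 to 0 (DU101 over control) and from 6 to 1 (DU101 over DU102), and Trav calls from 5 to 0 (DU102 over control) and from 4 to 1 (DU101 over DU102). Fewer cells remain under that rule. Control cells with Y-linked UMIs and no Xist alone gave 2 Trbv calls for DU101 and 0 Trav calls for DU102, and those with Xist gave 2 and 3. Counting UMIs in place of cells gave 2 Trav calls for DU101 over control and 7 for DU101 over DU102, and keeping cells with other-lineage UMIs gave 1 for DU101 over control. Taking Trav genes singly gave 3 calls for DU102 over control. Without a UMI minimum, more V genes are tested: those called by CPM over control numbered 7 of 80 (CD8, DU102), 4 of 70 (CD4, DU101) and 8 of 68 (CD4, DU102), where 9.61%, 9.7% and 7.2% of all genes were called; with it they numbered 4 of 13, 0 of 0 and 1 of 1. The cause of these moves was not tested except where fewer cells remain. In CD4 cells 44.4% of all called genes were higher in DU101 than in control, and 54.9% with trimmed-mean scaling. Most cells show 1 V gene UMI, so genes used by under about 20 cells cannot be compared at this depth.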
